A study of Homo sapiens with 10 samples.

Results

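The p53 target genes are 37 genes that the tumour suppressor p53 is known to switch on, followed here in A549 cells, a human lung adenocarcinoma line, after 2 drugs that block transcription by RNA polymerase II. The genes were named by hand, and the introns and exons were given to them by GRCh37 splice sites in GENCODE release 44. Of the 37 genes, 33 had introns in at least 1 library, out of 10846 genes with introns in the whole series, and SPATA18, TRIM22, KITLG and CMBL are not analysed here. The 5 conditions, with 2 RNA-seq libraries each, were DRB at 25 and at 10 μg/mL, α-amanitin at 2 and at 1 μg/mL for 24 h, and DMSO, the vehicle. They are called high DRB, low DRB, high α-amanitin, low α-amanitin and DMSO below. DRB inhibits the kinases that release paused polymerase, and α-amanitin is a mushroom toxin that binds the polymerase itself. No duration is given for DRB or DMSO, and nothing says whether the libraries of a condition came from separate cultures, so that p-values measure only the spread between these libraries. The study set slowed transcription against DMSO to look at splicing, and the comparisons below ask how the levels and the splicing of p53 target genes differed between the same libraries.

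The p53 protein is held low in unstressed cells by ubiquitin ligases and accumulates after DNA damage, ribosomal stress or a block of transcription. It binds a DNA element made of a pair of half-sites near its target genes and raises their transcription. Its targets stop the cell cycle, repair DNA, start or restrain apoptosis, and adjust metabolism and redox balance, and several of them, such as PPM1D, act back on p53. Many of their mRNAs are short-lived.

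Each value below is a count of split reads, the reads that cross a splice junction, summed over a gene's introns and given as CPM. CPM is the count over a library size, which is the total of split reads times a TMM factor. The factor is a trimmed, weighted mean of ratios over genes with reads in both libraries compared. The median of all genes can therefore still differ between conditions. The library size was 0.779 and 0.686 of the total at high DRB and between 1.02 and 1.14 of it in the other 8 libraries. CPM at high DRB thus stand above plain shares of split reads and elsewhere slightly below them. Libraries held between 2899344 and 6498515 split reads. An intron was in a library's file only above a minimum, and one that was not could still hold up to 10 split reads, so that 0 CPM means below that minimum. The bounds below give 10 reads to each unlisted intron, but only among introns listed in some library. Introns listed in no library were not counted. Libraries differed in how many introns passed it, with 45513 and 60620 at high DRB and between 74739 and 90955 in the other 8 libraries. Unspliced reads came to 3080765 and 10641205 at high DRB and to between 1718564 and 4001236 elsewhere. Of the markers of epithelial cells, KRT8, KRT18 and KRT7 had introns in every library and KRT19, CDH1 and EPCAM in none. The A549 genes ALDH1A1 and NQO1 were at 1138 CPM or more in every library, and CDKN2A and CDKN2B, which lie in a region deleted from this line, were at 0, while MTAP beside them, fixed as a further gene of that region, was listed at 11.1 to 26.1 CPM. Markers of alveolar type 2 cells and endothelium were at 0 in all libraries. Of the leukocyte markers only CD68 passed, at 5.31 and 23.9 CPM at high DRB and at 0 in DMSO, and of the fibroblast markers only COL1A1, at 31 and 0 CPM at high DRB and 155 and 12 CPM in DMSO. The part of these 2 genes' cell types in the results was not tested. In such bulk libraries fewer cells and less RNA per cell cannot be told apart.

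To describe the sequence near these genes, the reference within 2500 bases of the start of each canonical transcript was searched for the p53 response element. This is a run of 20 bases made of a pair of adjoining half-sites with intact cores. On GRCh37, 14 of the 37 genes (37.8%) held such an element with at most 2 mismatches, against 440 of 19252 protein-coding genes (2.29%). The elements printed below belong to genes with large rises at high DRB, described further on. They are written 5′ to 3′ with the core of each half-site in capitals, and lie on the gene's strand.
CDKN1A, chr6:36644226-36644245, plus strand: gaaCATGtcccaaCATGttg
GADD45A, chr1:68152458-68152477, plus strand: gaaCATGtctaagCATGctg
PLK2, chr5:57758101-57758120, minus strand: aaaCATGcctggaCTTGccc
AEN, chr15:89164537-89164556, plus strand: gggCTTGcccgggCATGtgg
BTG2, chr1:203272770-203272789, plus strand: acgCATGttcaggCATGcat

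Counted in bases from the start of the canonical transcript, the PLK2 element lay at −2198 and had 0 mismatches to the consensus, and the GADD45A element lay at 1584 and had 1. The other 3, at −2255 in CDKN1A, −1867 in BTG2 and −24 in AEN, had 2 each. A match is a description of these letters and not a measured site of binding. A gene without a match in this window can hold its element elsewhere. Elements were also found in CCNG1, EDA2R, GDF15, PMAIP1, PTP4A1, RRM2B, ZMAT3, SPATA18 and CMBL. The ZMAT3 element had 0 mismatches, and those of PTP4A1 and RRM2B and 1 element of CCNG1 had 1, yet none of these genes was called up at high DRB. EDA2R, with 2 mismatches, was called up there, as were SESN1 and SESN2, for which no element was found.

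The p53 target genes took up more of the split reads after DRB. Per library total, in the same unit but without TMM factors, they came to 3478 and 3369 at high DRB, 2998 and 2782 at low DRB, 1752 and 1767 at high α-amanitin and 1438 and 1486 at low α-amanitin, against 1296 and 1349 in DMSO. On the TMM scale, summed over the 33 genes, they came to 4464 and 4908 CPM at high DRB, 2707 and 2446 CPM at low DRB, 1687 and 1642 CPM at high α-amanitin, 1339.9 and 1372.5 CPM at low α-amanitin, against 1275 and 1309.8 CPM in DMSO. The median gene stood at 43.4 and 50.1 CPM at high DRB, 27.0 and 25.3 CPM at low DRB, 32.5 and 30.1 CPM at high α-amanitin, 18.6 and 20.2 CPM at low α-amanitin, and 15.3 and 15.5 CPM in DMSO. The share, the sum and the median were thus above both DMSO libraries in all 8 treated libraries, while between 24 and 25 of the 33 genes had introns in a DMSO library and between 29 and 33 in a treated one. At high DRB a pair of genes, PLK2 and GADD45A, supplied much of the sum.

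**Figure D1:**
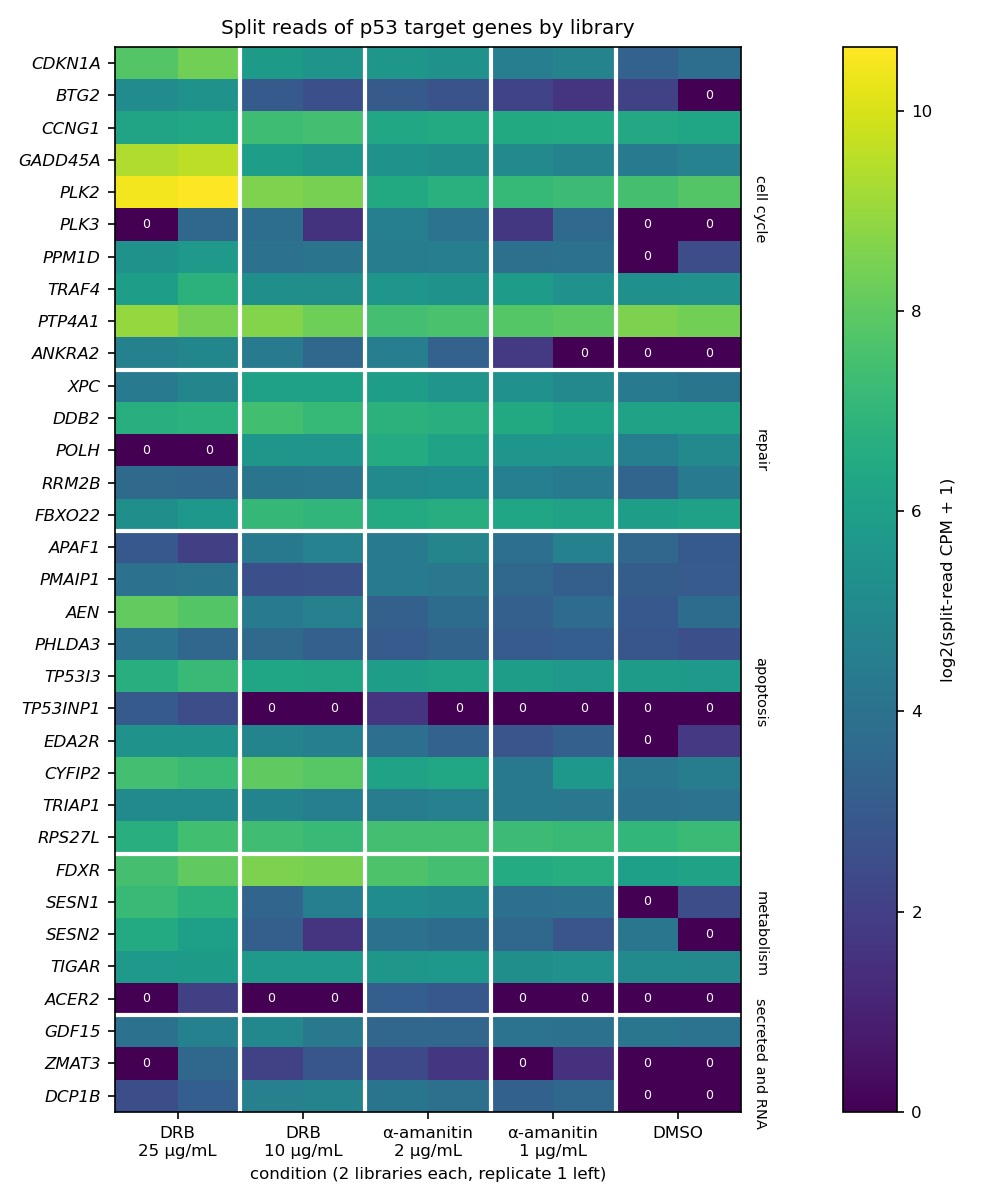
Levels of the 33 p53 target genes with introns, as log2 of split-read CPM plus 1 (colour), by library, from high DRB (25 μg/mL) at the left to DMSO at the right, with rows grouped by role and 0 written where no intron of the gene was listed. PLK2 reaches 1393 and 1597 CPM at high DRB, against 183 and 220.0 CPM in DMSO.

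Against DMSO, limma voom with Benjamini-Hochberg adjustment over all genes called 19 of 32 tested p53 target genes up and 1 down at high DRB, where 20.1% of all 9515 genes tested were called up and 41.1% down. At low DRB it called 10 of 32 up and 0 down, against 8.20% of all genes up and 6.64% down. At high α-amanitin it called 5 of 32 up and 2 down, against 2.39% of 9674 genes up and 3.88% down. At low α-amanitin it called 0 of 32 and 0% of all genes, while at an unadjusted p below 0.05 there were 7 of the p53 target genes up, 2 down and 973 of all genes. The median log2 fold change of the p53 target genes was 1.47, 1.19, 1.42 and 0.50 for these comparisons in the same order, and that of all genes was −1.01, 0.03, 0.05 and 0.04. Fits to genes at 0 in both libraries of a condition depend on the offset that voom adds. With such genes set to the fold that their unlisted introns allow, the medians of the p53 target genes were 1.06, 0.85, 0.64 and 0.25. Over only the introns listed in all 10 libraries, the median at high DRB was 0.58 for 20 p53 target genes and −0.03 for all 4688 genes tested. All 4 comparisons share the DMSO libraries.

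The counts above and the p-values below come from fits without a replicate block, unless the block is named. No label says that replicate numbers mark pairs, but same-numbered α-amanitin and DMSO libraries deviated together, so a blocked fit that pairs them was run as an alternative. With the replicate as a block 15 of 32 p53 target genes were called up and 2 down at high α-amanitin, against 10.4% and 11.5% of all genes. At low α-amanitin the blocked fit called 0 of 32, against 0.134% of all genes. In counts of libraries, 22 of the 33 genes had both libraries above both DMSO libraries at high DRB and 3 had both below, where 24.8% and 49.6% of 10093 genes did so. At low DRB 25 were above and 2 below (33.3% and 30.5% of all genes), at high α-amanitin 26 and 3 (29.7% and 26.7%), and at low α-amanitin 18 and 2 (20.8% and 18.9%). Leaving out any 1 of the 4 libraries compared left 0 of the 10 calls at low DRB, where all genes also went to 0 calls. At high α-amanitin 6 genes were called without replicate 2 of the drug and 0 without replicate 1 of the drug or either DMSO library, and 0 also when only the 4 libraries compared entered the fit. At high DRB fewer p53 target genes were called with any 1 of the 4 libraries left out, and fewer of all genes too.

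**Figure D2:**
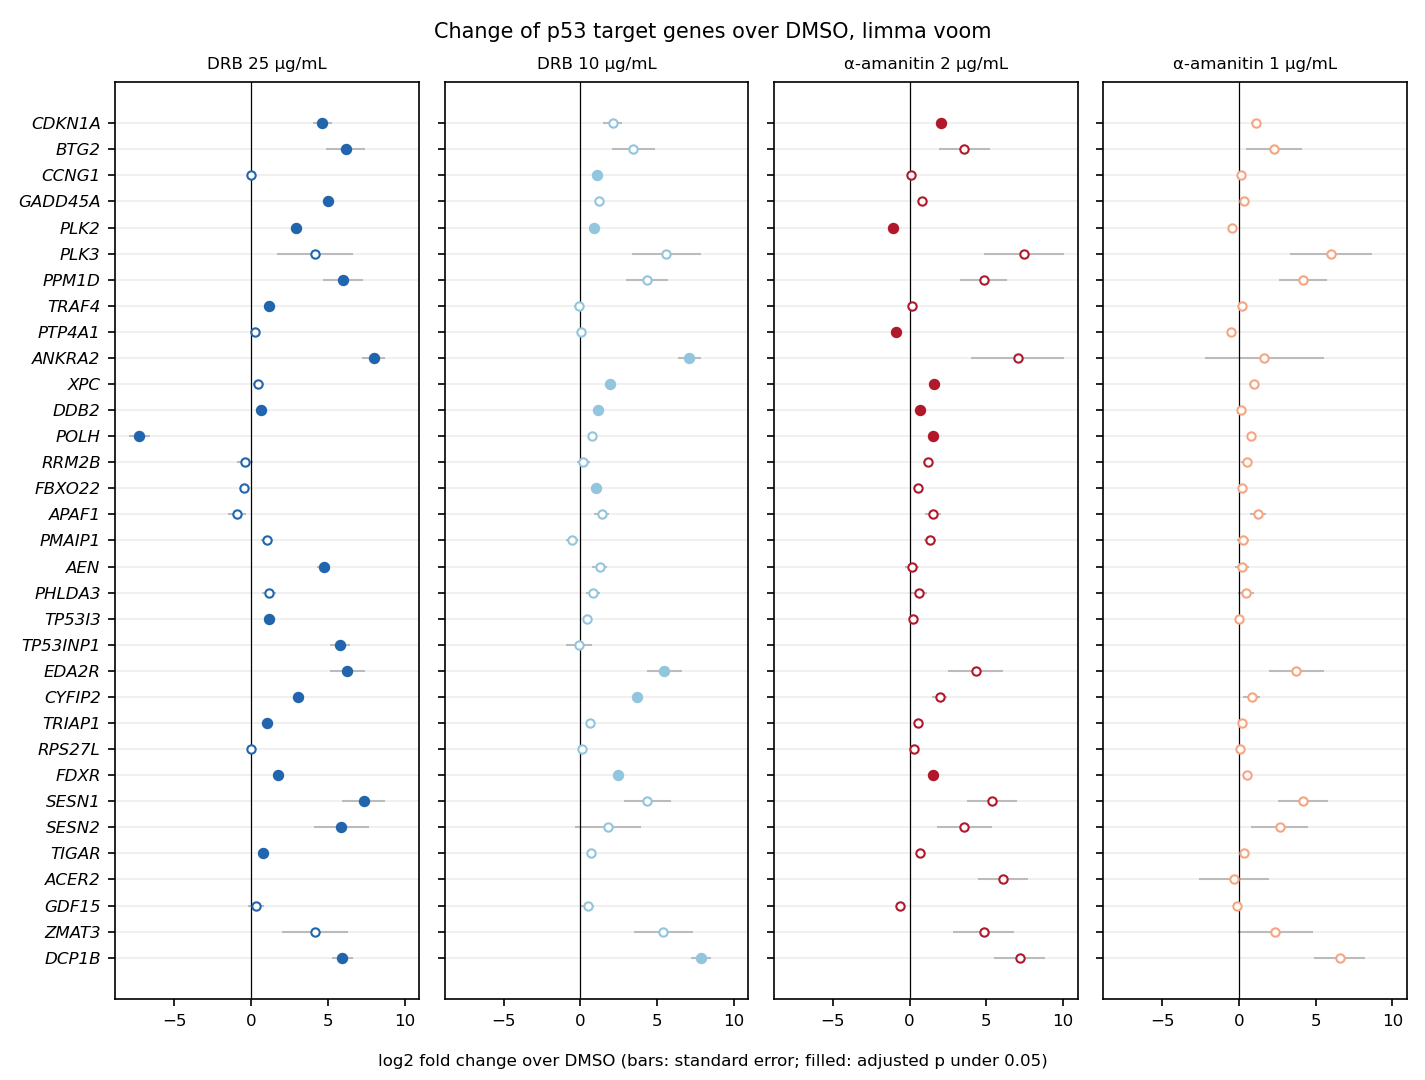
Log2 fold change over DMSO from limma voom (points, bars are the standard error) for each p53 target gene tested, in 1 panel per treatment, with filled points for an adjusted p below 0.05. Of 32 genes tested, 19 are filled to the right of 0 at high DRB, 10 at low DRB, 5 at high α-amanitin and 0 at low α-amanitin.

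Among the 10 genes of cell cycle arrest and growth, 7 rose and 0 fell at high DRB, 3 rose and 0 fell at low DRB, and 1 rose and 2 fell at high α-amanitin. CDKN1A (ENSG00000124762.14_6, chr6:36644237-36655114, plus strand) encodes p21, the inhibitor of cyclin-dependent kinases through which p53 arrests the cycle. It stood at 221 and 334 CPM at high DRB, 54.2 and 43.9 CPM at low DRB, 48.9 and 42.5 CPM at high α-amanitin and 22.7 and 25.9 CPM at low α-amanitin, against 9.16 and 13.2 CPM in DMSO. All 8 treated libraries were above both DMSO libraries. Its log2 fold change was 4.64 ± 0.59 (SE, adjusted p = 0.00161) at high DRB and 2.01 ± 0.30 (SE, adjusted p = 0.0236) at high α-amanitin in limma voom with Benjamini-Hochberg adjustment. At low DRB it was 2.11 ± 0.62 (SE, adjusted p = 0.0798), which did not pass, although on its introns 1 and 2 alone, both listed in all 10 libraries, it was 2.04 ± 0.25 (SE, adjusted p = 1.70e-05) and on total split reads 2.24.

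GADD45A (ENSG00000116717.13_7, chr1:68150884-68154017, plus strand) encodes a small protein of growth arrest that switches on stress kinases. It reached 672 and 759.8 CPM at high DRB and 61.3 and 48.5 CPM at low DRB, was at 42 and 36.9 CPM at high α-amanitin and 31.3 and 26.3 CPM at low α-amanitin, and at 20.1 and 25.1 CPM in DMSO. Every treated library was above both DMSO libraries. The log2 fold change was 4.98 ± 0.28 (SE, adjusted p = 0.000548) at high DRB, and 1.24 ± 0.31 (SE, adjusted p = 0.0523) at low DRB did not pass. At high α-amanitin it was 0.79 ± 0.21 (SE, adjusted p = 0.0729), and 0.80 with the replicate block, where the adjusted p was 0.0321.

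PLK2 (ENSG00000145632.15_8, chr5:57749809-57755966, minus strand), a polo-like kinase induced by stress, went opposite ways with the 2 drugs. It had 1393 and 1597 CPM at high DRB and 385 and 354 CPM at low DRB, all above the 183 and 220.0 CPM of DMSO. At high α-amanitin it had 86.6 and 106 CPM and at low α-amanitin 139 and 154 CPM, all below DMSO. The log2 fold change was 2.90 ± 0.13 (SE, adjusted p = 0.000548) at high DRB, 0.87 ± 0.14 (SE, adjusted p = 0.0172) at low DRB and −1.06 ± 0.15 (SE, adjusted p = 0.0212) at high α-amanitin. PTP4A1, a tyrosine phosphatase tied to growth, also fell at high α-amanitin, to 178 and 193 CPM against 371 and 328 CPM in DMSO, a log2 fold change of −0.91 ± 0.11 (SE, adjusted p = 0.0167). After DRB its libraries overlapped those of DMSO, with 498 and 356 CPM at high DRB and 403 and 317 CPM at low DRB. At low α-amanitin it was at 225 and 252 CPM, below both DMSO libraries, with an adjusted p of 0.463.

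BTG2, an antiproliferative protein that recruits mRNA deadenylases, has 1 intron in these files. It was at 34.1 and 43.4 CPM at high DRB, 7.09 and 4.99 CPM at low DRB and 7.11 and 5.65 CPM at high α-amanitin, against 3.20 and 0 CPM in DMSO. The high DRB libraries stood apart from all others, and giving the unlisted DMSO intron 10 reads still left BTG2 at least 14.8-fold higher there (fitted log2 fold change 6.17 ± 1.27 SE, adjusted p = 0.0087). PPM1D, the phosphatase that switches off damage signalling and p53, was at 43.4 and 51.8 CPM at high DRB, 15.1 and 16.2 CPM at low DRB, 22 and 22.7 CPM at high α-amanitin and 14.2 and 14.6 CPM at low α-amanitin, against 0 and 4.69 CPM in DMSO. Only the high DRB comparison passed, at 5.97 ± 1.31 (SE, adjusted p = 0.0108), with a fold of at least 2.89 by the same bound.

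CCNG1, cyclin G1, rose in 1 of the 4 comparisons with DMSO, with 159 and 178 CPM at low DRB against 85.8 and 74.8 CPM in DMSO (log2 fold change 1.08 ± 0.14 SE, adjusted p = 0.012). At high DRB it was at 73.9 and 79.9 CPM and overlapped DMSO, and the direct test between the doses gave a log2 difference of −1.11 ± 0.16 (SE, adjusted p = 0.00258). TRAF4, an adaptor of the tumour necrosis factor receptor family, rose at high DRB, where it was at 62 and 115 CPM against 39.8 and 40.9 CPM in DMSO (log2 fold change 1.17 ± 0.33 SE, adjusted p = 0.0245). On total split reads its call was lost, at 0.69. ANKRA2, an ankyrin repeat protein, had 0 CPM in both DMSO libraries and 24.8 and 28.4 CPM at high DRB, 20.1 and 11.2 CPM at low DRB and 22.6 and 9.25 CPM at high α-amanitin. It was called up at both doses of DRB, and with 10 reads in each unlisted intron of DMSO it was at least 1.12-fold higher at high DRB, while no rise was bounded at low DRB. PLK3, another polo-like kinase, was at 0 in DMSO, at 22.9 and 15.4 CPM at high α-amanitin and at 0 and 11 CPM at high DRB, and passed in no comparison.

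The 5 genes of DNA repair and nucleotide supply divided the doses of DRB. Of them 3 rose at low DRB and 3 at high α-amanitin, while at high DRB 1 rose and 1, POLH, was called down. XPC, which recognises lesions in nucleotide excision repair, had 19.9 and 28.4 CPM at high DRB, 67.5 and 67.4 CPM at low DRB, 59.9 and 46.3 CPM at high α-amanitin and 40.4 and 31.1 CPM at low α-amanitin, against 19.2 and 16.5 CPM in DMSO. All of these libraries were above DMSO, and the rise passed at low DRB (1.92 on the log2 scale, adjusted p = 0.0122) and at high α-amanitin (1.56, adjusted p = 0.0322). Only 1 of its 22 introns was listed in all 10 libraries, and on that intron XPC fell by 1.15 at high DRB (adjusted p = 0.0134) and was not called in the other comparisons with DMSO.

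DDB2, the other recogniser of ultraviolet damage, had 104 and 110.1 CPM at high DRB, 169 and 140.0 CPM at low DRB and 113 and 104 CPM at high α-amanitin, against 69.8 and 69.1 CPM in DMSO. It was above DMSO in all 8 treated libraries and was called up in these 3 comparisons, with log2 fold changes of 0.64, 1.14 and 0.65. The call at high DRB was lost on total split reads, at 0.13, and on the introns listed in all 10 libraries, at 0.32. POLH, the polymerase that copies past ultraviolet lesions, had 91.4 and 69.8 CPM at high α-amanitin and 47.6 and 47.7 CPM at low α-amanitin, against 22.9 and 31.6 CPM in DMSO, and its log2 fold change at high α-amanitin was 1.55 ± 0.23 (SE, adjusted p = 0.0241). At high DRB none of its 16 introns was listed in either library, against 49.2 and 45.3 CPM at low DRB. It was called down there (adjusted p = 0.000651), but with 10 reads in every unlisted intron the libraries would allow up to 2.13 times the DMSO level, so that the listing minimum leaves a fall unestablished.

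RRM2B, a subunit of ribonucleotide reductase that supplies nucleotides for repair, was at 32.5 and 35.1 CPM at high α-amanitin and 12 and 10.4 CPM at high DRB, against 10.1 and 20.8 CPM in DMSO, and did not pass in a comparison with DMSO. With the replicate block the high-dose value passed, at 1.12 (adjusted p = 0.0410). FBXO22, the substrate adaptor of a ubiquitin ligase, rose at low DRB to 136 and 129 CPM, against 59.97 and 68 CPM in DMSO (1.04 ± 0.15 SE, adjusted p = 0.0122). At high DRB it was at 38.1 and 50.1 CPM, below both DMSO libraries, and did not pass over all its introns (adjusted p = 0.114). On the introns listed in all 10 libraries and on total split reads it fell there, by 0.60 and 0.99.

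Of the 10 genes of apoptosis, 6 rose and 0 fell at high DRB, 2 rose and 0 fell at low DRB, and 0 of the 9 tested passed at high α-amanitin. AEN (ENSG00000181026.15_6, chr15:89164568-89175512, plus strand), a nuclease that enhances apoptosis, was at 273 and 222 CPM at high DRB, 19.5 and 23.9 CPM at low DRB, 8.71 and 12.5 CPM at high α-amanitin and 8.68 and 12.4 CPM at low α-amanitin, against 6.64 and 12.4 CPM in DMSO. The high DRB libraries were far above all others, and the α-amanitin libraries overlapped DMSO. The log2 fold change was 4.72 ± 0.44 (SE, adjusted p = 0.000651) at high DRB. CYFIP2, a subunit of the complex that drives actin branching, was at 178 and 149 CPM at high DRB, 260.2 and 237 CPM at low DRB and 68.4 and 79.7 CPM at high α-amanitin, against 17.2 and 21.2 CPM in DMSO. It was highest at the lower dose of DRB, and passed at both, at 3.06 ± 0.29 (SE, adjusted p = 0.000709) and 3.68 ± 0.29 (SE, adjusted p = 0.0101). At high α-amanitin it passed only with the replicate block (adjusted p = 0.0128).

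EDA2R, a receptor of the tumour necrosis factor family, was at 43.4 and 42.8 CPM at high DRB and 27 and 23.2 CPM at low DRB, against 0 and 2.44 CPM in DMSO. It was called up at both doses, and was at least 1.71-fold higher at high DRB once unlisted introns were given 10 reads, while at low DRB no rise was bounded. TP53I3, an oxidoreductase that makes reactive oxygen, was at 103 and 142 CPM at high DRB and 78.3 and 72.4 CPM at low DRB, against 57.5 and 52.6 CPM in DMSO (1.19 ± 0.21 SE, adjusted p = 0.00508 at high DRB). TP53INP1, which promotes cell death and autophagy under p53, was listed only at high DRB, with 7.08 and 4.79 CPM, and in 1 library of high α-amanitin, with 2.13 CPM. By the same bound, over the 2 introns listed in any library, it was at least 1.37-fold higher at high DRB than in DMSO. Its canonical transcript has 3 introns, so that not all were counted, and the rest could hold enough reads to remove that rise.

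TRIAP1, a small mitochondrial protein that restrains apoptosis, rose at high DRB to 33.2 and 31.8 CPM, against 15.3 and 15.7 CPM in DMSO (1.06 ± 0.32 SE, adjusted p = 0.0315), and its call was lost on total split reads, at 0.54. PMAIP1, the BH3-only protein NOXA, was at 15.1 and 16.3 CPM at high DRB, 5.04 and 5.17 CPM at low DRB and 19.6 and 18.4 CPM at high α-amanitin, against 7.78 and 7.33 CPM in DMSO. Its libraries lay above DMSO at high DRB and below DMSO at low DRB, and neither value passed against DMSO. The high α-amanitin value passed with the replicate block, at 1.32 (adjusted p = 0.0407). APAF1, the core of the apoptosome, was at 6.64 and 3.10 CPM at high DRB, 18.8 and 25.3 CPM at low DRB and 20.4 and 28.1 CPM at high α-amanitin, against 10.3 and 7.13 CPM in DMSO, and passed only for α-amanitin with the block (1.61, adjusted p = 0.0308).

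PHLDA3, an inhibitor of AKT, was at 15.5 and 10.4 CPM at high DRB against 6.18 and 5.09 CPM in DMSO and did not pass over all introns (adjusted p = 0.0753). RPS27L, a paralog of a ribosomal protein, kept about the same level everywhere, between 105 and 177 CPM, and passed in no comparison with DMSO. Reads of RPS27L could be shared with its close relative RPS27, so that its level is uncertain.

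The genes of metabolism and redox balance rose together at high DRB, where 4 of 4 tested passed, while 1 of 4 passed at low DRB and 1 of 5 at high α-amanitin. The gene that passed in all 3 was FDXR (ENSG00000161513.12_13, chr17:72858619-72869156, minus strand), the mitochondrial reductase that hands electrons to ferredoxin. It was at 182 and 260.4 CPM at high DRB, 372 and 346 CPM at low DRB, 205 and 174 CPM at high α-amanitin and 93.4 and 98.3 CPM at low α-amanitin, against 62.7 and 68.6 CPM in DMSO. All 8 treated libraries were above DMSO. The log2 fold changes were 1.76 ± 0.22 (SE, adjusted p = 0.00161), 2.44 ± 0.21 (SE, adjusted p = 0.0101), 1.52 ± 0.13 (SE, adjusted p = 0.012) and 0.55 ± 0.14 (SE, adjusted p = 0.465) in the same order.

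SESN1 and SESN2 encode sestrins, which restrain mTORC1 and oxidative stress. SESN1 was at 144 and 114 CPM at high DRB, 10.1 and 23 CPM at low DRB and 35.2 and 30.1 CPM at high α-amanitin, against 0 and 4.69 CPM in DMSO. SESN2 was at 89.4 and 64.2 CPM at high DRB, 8.24 and 2.14 CPM at low DRB and 14.9 and 12.4 CPM at high α-amanitin, against 16.9 and 0 CPM in DMSO. At high DRB both stood above DMSO without overlap, by at least 3.93-fold and 3.46-fold with 10 reads in each unlisted intron (adjusted p = 0.00630 for SESN1 and 0.0340 for SESN2 in limma voom). TIGAR, a phosphatase that turns sugar away from glycolysis, was at 53.6 and 55.2 CPM at high DRB, 53.1 and 51 CPM at low DRB, 48.9 and 49.7 CPM at high α-amanitin and 38.5 and 40.5 CPM at low α-amanitin, against 31.8 and 31.2 CPM in DMSO. It passed at high DRB (0.80 ± 0.21 SE, adjusted p = 0.0205), which was lost on total split reads (0.28) and on the introns listed in all 10 libraries (0.36). ACER2, a ceramidase of the Golgi, was listed at high α-amanitin, at 8.18 and 6.59 CPM, and in 1 library of high DRB, at 3.10 CPM, and nowhere else.

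Of the remaining 3 genes 1 rose at either dose of DRB. DCP1B, a cofactor of mRNA decapping, was at 4.87 and 8.16 CPM at high DRB, 23.6 and 26.2 CPM at low DRB, 16.4 and 14.4 CPM at high α-amanitin and 8.89 and 10.8 CPM at low α-amanitin, and at 0 in both DMSO libraries. It was called up at both doses of DRB, and with 10 reads in each unlisted intron it was at least 1.28-fold higher at low DRB, while no rise was bounded at high DRB. At high DRB only introns 1 and 2 of its 8 canonical introns were listed. GDF15, a secreted stress cytokine, was at 15.1 and 24.8 CPM at high DRB, 30.7 and 18.2 CPM at low DRB and 10.3 and 10.5 CPM at high α-amanitin, against 16.9 and 15.5 CPM in DMSO, and passed in no comparison with DMSO. ZMAT3, an RNA-binding zinc finger protein, was at 0 in DMSO and at 0 and 11.3 CPM at high DRB and 3.20 and 6.24 CPM at low DRB, and passed in none.

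These calls were set against a narrower sum, over only the introns listed in all 10 libraries, which 20 of the p53 target genes have. At high DRB 10 of these 20 rose and 2 fell, where 30.8% and 31.4% of 4688 genes did. At low DRB 11 rose and 0 fell (16.6% and 17.1% of all genes), and at high α-amanitin 8 rose and 2 fell (5.80% and 8.55%), with 0 called at low α-amanitin (0%). Of the 19 genes called up at high DRB over all introns, 11 could be tested this way and 9 were called up again, with GADD45A at 4.74, AEN at 4.28, CDKN1A at 3.62 and PLK2 at 2.68. Among the genes called at high DRB, ANKRA2, BTG2, DCP1B, EDA2R, PPM1D, SESN1, SESN2, TP53INP1 and POLH have no such intron. In sums over the introns listed in any library, with 10 reads given to each where it was unlisted, most genes called up stayed above DMSO. These were 18 of the 19 genes at high DRB, 8 of the 10 at low DRB and 5 of the 5 at high α-amanitin. For TP53INP1, introns listed in no library could remove the rise.

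The doses of DRB were compared directly. At high against low DRB, 11 of 32 p53 target genes were higher and 9 lower, where 19.5% of all genes were higher and 43.6% lower. The genes that were higher at high DRB were CDKN1A (2.54 on the log2 scale), BTG2 (2.73), GADD45A (3.74), PLK2 (2.03) and TRAF4 (1.26) of the cell cycle, AEN (3.46), PMAIP1 (1.61), TP53I3 (0.74) and TP53INP1 of apoptosis, and the sestrins SESN1 (2.96) and SESN2 (4.09). Those that were lower were 4 of the 5 repair genes, DDB2 (−0.50), XPC (−1.45), FBXO22 (−1.54) and POLH, together with CCNG1 (−1.11), APAF1 (−2.32), CYFIP2 (−0.62), FDXR (−0.68) and DCP1B (−1.93). No libraries of the 2 doses overlapped for any of these 20 genes, which were picked because they were called between the same libraries. Both libraries were higher at high DRB for 16 of 33 p53 target genes and 24.3% of 10093 genes. Both were lower for 10 of 33 p53 target genes and 52.9% of all genes. The scaling mattered here, since total split reads in place of TMM factors moved the median of all genes by −0.61 and left 6 of the p53 target genes higher and 11 lower, so that 35.3% of calls were higher in place of 55.0%. The 6 were AEN, CDKN1A, GADD45A, PLK2, SESN1 and TP53INP1. Over all genes 17.8% of calls were higher in place of 30.8%. With either library of low DRB left out, fewer of the 32 genes and fewer of all genes were called.

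**Figure D3:**
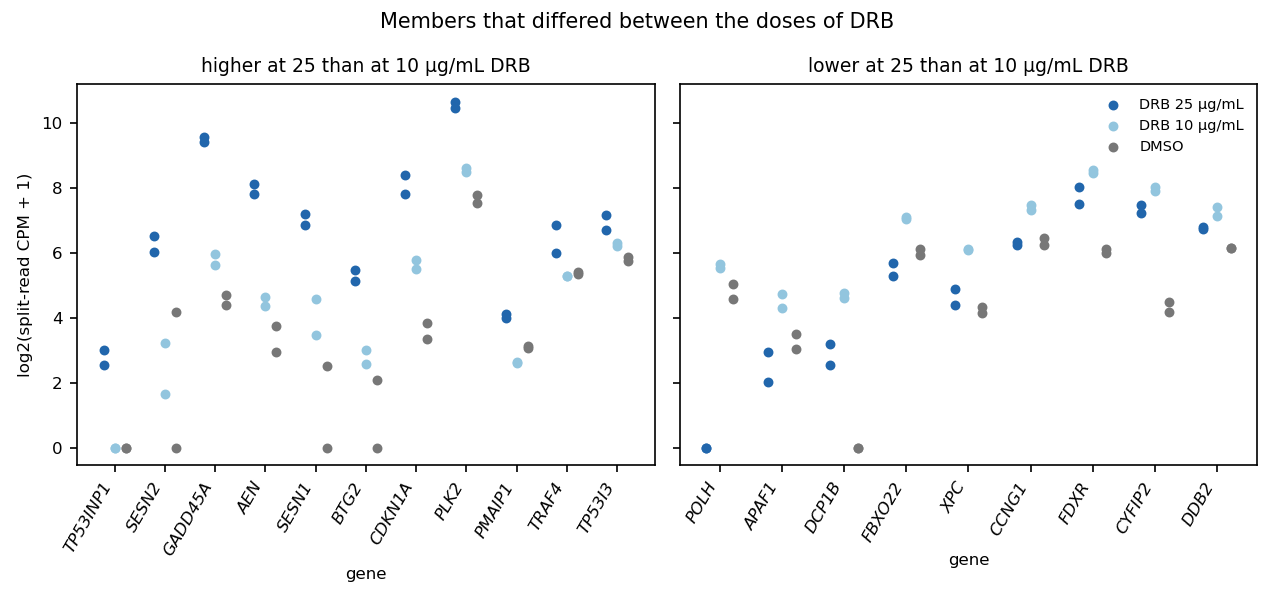
Log2 of split-read CPM plus 1 (vertical axis) in each library at high DRB, low DRB and DMSO for the 20 p53 target genes that differed between the doses of DRB. The 11 genes at the left lie higher and the 9 at the right lower at high than at low DRB in both libraries.

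The same scaling was checked for the comparisons with DMSO. On total split reads the median of all genes moved by −0.48 at high DRB and by 0.13 at low DRB. There were then 15 p53 target genes up and 3 down at high DRB, so that 83.3% of calls were up in place of 95.0%. Over all genes 21.6% of calls were up in place of 32.9%. DDB2, TIGAR, TRAF4 and TRIAP1 were no longer called, and CCNG1 (−0.55) and FBXO22 (−0.99) were called down beside POLH. At high α-amanitin all genes had 38.1% of calls up on TMM factors and 50.7% on total split reads, and the p53 target genes 71.4% and 75.0%.

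The 2 doses of α-amanitin were not told apart, with 0 of 32 p53 target genes and 0% of all genes called between them, and 13 p53 target genes higher and 2 lower at high than at low α-amanitin at an unadjusted p below 0.05. Between the drugs, 7 of 33 p53 target genes were higher and 4 lower at low DRB than at high α-amanitin, where 10.3% of 10093 genes were higher and 10.6% lower. The higher ones included PLK2 (1.93), CYFIP2 (1.74), CCNG1 (0.97), PTP4A1 (0.94) and FDXR (0.93), and the lower ones were PMAIP1 (−1.87), RRM2B, POLH (−0.76) and ACER2, which was at 0 in both DRB libraries. At high DRB 14 were higher and 7 lower than at high α-amanitin, where 19.1% of all genes were higher and 40.9% lower. AEN (4.51), GADD45A (4.19), PLK2 (3.96), BTG2 (2.63), CDKN1A (2.62) and SESN2 (2.42) were among the higher genes, and XPC (−1.08), RRM2B (−1.61), APAF1 (−2.47) and FBXO22 (−1.07) among the lower. On total split reads these splits were 10 higher and 3 lower (76.9% higher in place of 63.6%) and 11 higher and 11 lower (50.0% in place of 66.7%). Over all genes 58.7% and 18.6% of calls were higher, in place of 49.3% and 31.8%. At low DRB against α-amanitin 4 genes were called without replicate 1 of DRB, 5 without replicate 2 and 6 without replicate 1 of α-amanitin, and at high DRB 13 were called without replicate 2 of DRB. The hours of DRB are not given, so the drugs differ in agent, dose and possibly time, and these cannot be told apart.

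Within CDKN1A the split reads at high DRB lay in its canonical introns and in junctions that were not listed in DMSO. Intron 2 had 256 and 537 split reads at high DRB and 148 and 184 at low DRB, against 28 and 46 in DMSO. The other canonical intron, intron 1, is 5298 bases long. It had 36 and 148 split reads at high DRB, 67 and 45 at low DRB, 57 and 62 at high α-amanitin and 36 and 52 at low α-amanitin, against 12 and 19 in DMSO. Other introns that lie within it had 208 and 503 split reads at high DRB, 22 and 17 at low DRB, 7 and 6 at high α-amanitin, 0 and 6 at low α-amanitin, and 0 in both DMSO libraries. At high DRB the inner junctions thus outnumbered intron 1 itself in both libraries, and nowhere else did they. There were 14 such inner introns, of which 12 are not in GENCODE and 9 of these were listed only at high DRB.

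**Figure D4:**
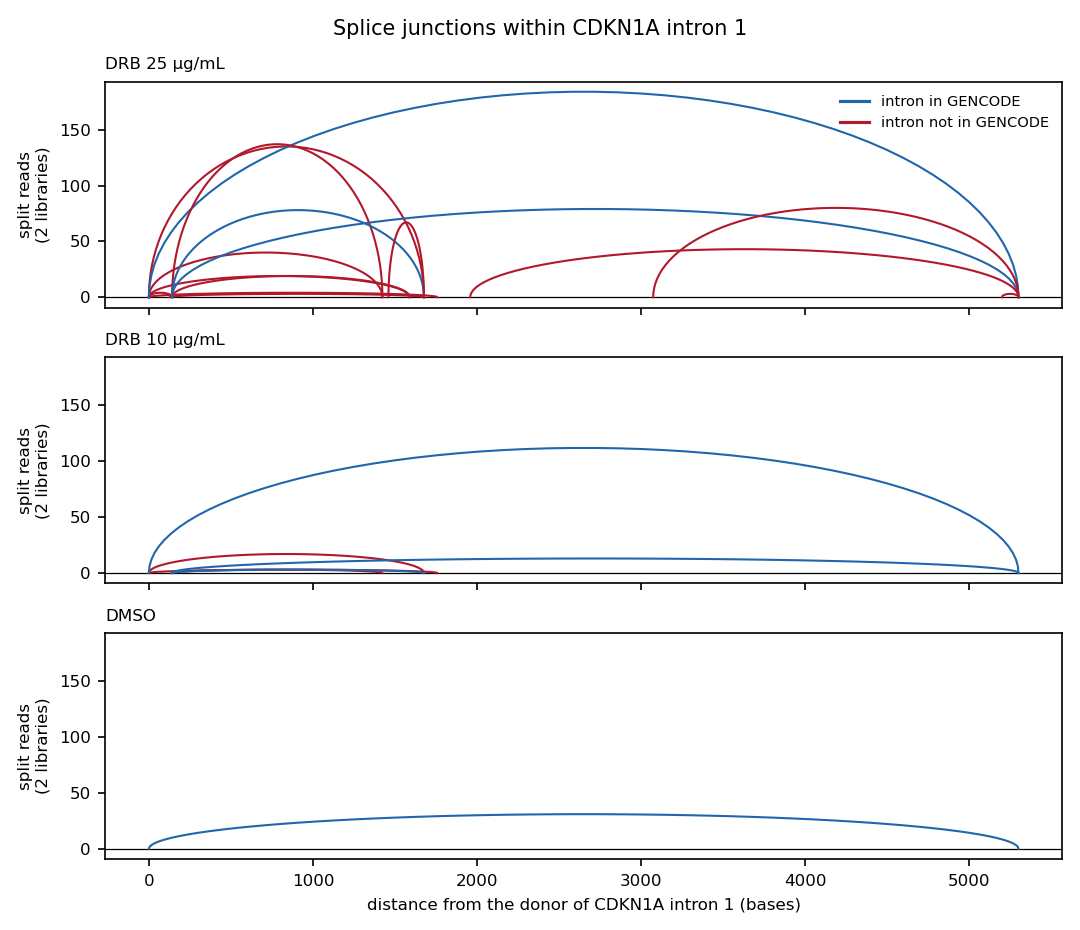
Junctions within CDKN1A intron 1, drawn as arcs from donor to acceptor (horizontal axis in bases from the donor of intron 1), with the arc's height giving the split reads summed over 2 libraries, at high DRB, low DRB and in DMSO. Only intron 1 itself appears in DMSO, while at high DRB arcs that are not in GENCODE end or start inside it.

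The splice sites these inner junctions used are shown beside those of intron 1, to show what was joined. Each acceptor is given as the last bases of the intron with the first 3 of the exon and each donor as the last 3 bases of the exon with the first of the intron, 5′ to 3′ on the plus strand of GRCh37, with the terminal dinucleotide of the intron in capitals.
CDKN1A donor of intron 1, chr6:36646573-36646583: gagGTgagaga
CDKN1A acceptor of intron 1, chr6:36651854-36651876: tccttgtatctctgctgcAGgcg
Inner acceptor in GENCODE, chr6:36648231-36648253: tctccccctccccaccccAGggt
Inner acceptor not in GENCODE, chr6:36647978-36648000: cgtctatttttattttccAGgga
Inner acceptor not in GENCODE, chr6:36648144-36648166: agcgcgcggtttcccaacAGcgg
Inner donor in GENCODE, chr6:36646714-36646724: cagGTgaatga
Inner donor not in GENCODE, chr6:36648033-36648043: aagGTggaggg
Inner donor not in GENCODE, chr6:36648531-36648541: tagGTtcaaca
Inner donor not in GENCODE, chr6:36649646-36649656: cagGTgtgaga

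Only inner sites with at least 20 split reads over both libraries at high DRB are printed. All of these sites carry the usual dinucleotides, but the paper states that split reads were filtered by canonical GT/AG, so this adds no support for them. Over both libraries at high DRB the inner acceptors took 283, 177 and 38 split reads in the order printed, and the inner donors 313, 67, 43 and 80. The acceptor in GENCODE opens an exon of a non-coding CDKN1A transcript, at chr6:36648251-36648634. No junction that leaves this exon at its annotated end was listed in any library. The inclusion reads below thus all come from junctions into the acceptor, and the end of the exon is not shown. The exon's inclusion level Ψ, the inclusion reads over the sum of inclusion reads and of skipping reads counted double, was 0.387 and 0.339 at high DRB and 0.0788 and 0.0667 at low DRB, against 0 in both DMSO libraries and all 4 of α-amanitin. The change at high DRB passed, with an adjusted p of 0.0113 in the quasi-binomial test with Benjamini-Hochberg adjustment over all exons, and that at low DRB did not.

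Reads in introns outside GENCODE were more common in the p53 target genes at high DRB, and CDKN1A supplied many of them. They made up 4.39% and 3.89% of the split reads of these genes at high DRB, 0.397% and 0.459% at low DRB, 0.674% and 0.430% at high α-amanitin and 0.316% and 0.393% at low α-amanitin, against 0.108% and 0.0933% in DMSO. Over all genes the shares were 1.33% and 0.958% at high DRB and 0.181% and 0.186% in DMSO. Without CDKN1A the share of the p53 target genes was 2.89% and 1.79% at high DRB and 0.108% and 0.0943% in DMSO. In CDKN1A itself the share was 33.2% and 32.7% at high DRB and 0% in DMSO, and in XPC 17.8% and 25.7%, again against 0%. These shares were not tested.

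Exon inclusion was tested for the few p53 target genes with enough skipping and inclusion reads. At high DRB Ψ rose for 4 of 33 exons and fell for 17, in 11 genes, where it rose for 7.69% of 10875 exons tested and fell for 43.4%. At low DRB 0 of 33 passed (0.0276% of all exons), with 3 at an unadjusted p below 0.05, and with α-amanitin 0 of 12 exons passed at high α-amanitin (0.0290%) and 0 at low α-amanitin (0%), with 4 and 6 of the 12 at an unadjusted p below 0.05. All 21 calls at high DRB were lost when any 1 library of that comparison was left out, and with the replicate as a block.

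TP53I3 exon 4 of 5 (chr2:24302314-24302510, 197 coding bases, minus strand) had, with CYFIP2 exon 19, the largest fall among the canonical exons called. Its Ψ was 0.250 and 0.389 at high DRB, 0.696 and 0.716 at low DRB, 0.832 and 0.905 at high α-amanitin and 0.849 and 0.932 at low α-amanitin, against 1.00 and 0.914 in DMSO. Pooled, it was 0.341 at high DRB and 0.951 in DMSO (adjusted p = 0.00981), and the libraries of both doses of DRB lay below both DMSO libraries. The junction that skips it had 42 and 66 split reads at high DRB and 5 in 1 DMSO library. A shorter form of the same exon, chr2:24302372-24302510, was at 0.223 against 0.911 in DMSO. In CYFIP2, exon 19 of 32 (chr5:156753179-156753275, 97 bases, plus strand) had Ψ of 0.235 and 0.543 at high DRB and 0.872 and 0.881 at low DRB, against 1.00 in both DMSO libraries (adjusted p = 0.0260 at high DRB). It rested at high DRB on 8 and 19 inclusion reads, all from the junction before the exon, since the one after it was not listed there, and on 13 and 8 skipping reads. All of these skipping reads were of 1 junction, which is not in GENCODE and joins exon 18 to exon 21, so that exon 20 (77 bases) was skipped together with exon 19, 174 bases in all, a multiple of 3. The TP53I3 junction skips exon 4 alone, and 197 is not a multiple of 3. For CYFIP2 exon 19 the values of Ψ are not like for like. At low DRB both flanking junctions were listed, with 53 and 73 reads before the exon and 15 and 16 after it. In DMSO only the junction before it was listed, in replicate 2, with 11 reads. As skipping reads count double, inclusion reads from 1 junction give a lower Ψ than those from both.

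The splice sites of TP53I3 exon 4 and CYFIP2 exon 19 are shown since the skipping junctions passed over them, in the same layout as above, with the terminal dinucleotide in capitals.
TP53I3 exon 4 acceptor, chr2:24302508-24302530, minus strand: aaatctgtttcctatggaAGgtg
TP53I3 exon 4 donor, chr2:24302306-24302316, minus strand: aagGTgagtga
CYFIP2 exon 19 acceptor, chr5:156753159-156753181, plus strand: ctgtgtttttccctcttcAGgta
CYFIP2 exon 19 donor, chr5:156753273-156753283, plus strand: gagGCaagtga

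The CYFIP2 donor begins with GC in place of GT. The other exons called at high DRB lay in CCNG1 (4), RPS27L (3), FDXR and PMAIP1 (2 each), and DDB2, EDA2R, FBXO22 and TIGAR (1 each), beside the CDKN1A and CYFIP2 exons and 4 of TP53I3, and several are overlapping forms of 1 exon. DDB2 exon 4, for example, had Ψ of 0.556 and 0.477 at high DRB against 1.00 and 0.899 in DMSO. With α-amanitin the lowest p-values belonged to a coding exon of RRM2B, whose Ψ was 0.529 and 0.415 at high α-amanitin and 0.182 and 0.214 at low α-amanitin, against 0 in both DMSO libraries (adjusted p = 0.101 and 0.357), and to forms of a PTP4A1 exon ending at chr6:64282624, at 0.955 and 0.906 at high α-amanitin against 1.00 in DMSO (adjusted p = 0.109). None of these passed, although the libraries did not overlap.

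**Figure D5:**
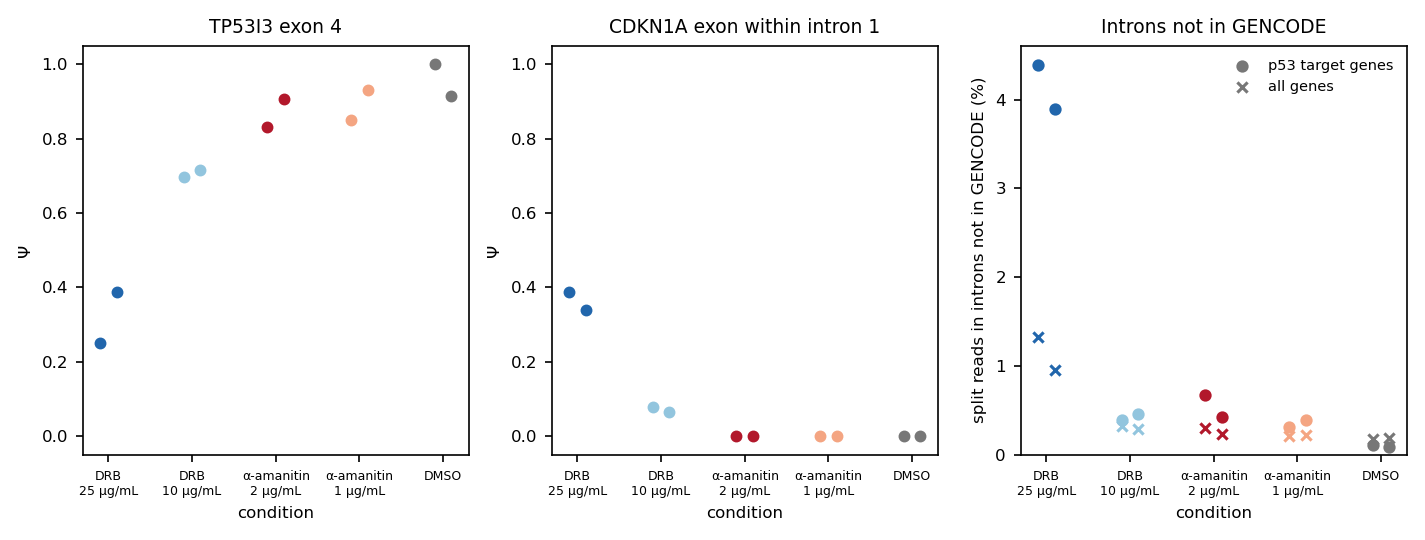
Ψ of TP53I3 exon 4 (left) and of the CDKN1A exon within intron 1 (middle), and the percentage of split reads in introns not in GENCODE for p53 target genes and all genes (right), by library and condition. TP53I3 exon 4 is lowest and the CDKN1A exon highest at high DRB, where 4.39% and 3.89% of the target genes' split reads lie outside GENCODE.

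Unspliced reads over the ends of introns were compared with split reads at the same ends, for introns listed in every library of a fit. At high DRB the unspliced share rose in 2 of 15 p53 target genes tested and fell in 1, where it rose in 6.90% of 2682 genes and fell in 3.06%. In CDKN1A it was 13.9% and 14.4% at high DRB and 4.02% and 2.76% at low DRB, against 0% in DMSO (adjusted p = 0.0230 at high DRB in the quasi-binomial test). In XPC it was 50.0% and 44% at high DRB against 0% in DMSO (adjusted p = 0.0288), on only 8 and 11 unspliced and 4 and 7 split reads at high DRB, and in GDF15 0% at high DRB against 11.4% and 9.52% in DMSO (adjusted p = 0.0472). The share over all genes was 3.27% and 2.73% at high DRB and 2.49% and 2.29% in DMSO. At low DRB 0 of 15 passed (0% of all genes), with 2 at an unadjusted p below 0.05, and with α-amanitin 0 of 16 passed at high α-amanitin (0.0511%) and at low α-amanitin (0%), with 4 and 1 at an unadjusted p below 0.05. These 3 calls too were lost with any 1 library left out and with the replicate block.

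The pathway around these genes was followed in a list of 25 regulators of p53 and in a list of 25 cell cycle genes that p53 lowers through p21 and the DREAM repressor complex. Of the regulators, 3 rose and 13 fell at high DRB (median log2 fold change −2.79), 2 rose and 1 fell at low DRB (−0.14), 1 rose and 2 fell at high α-amanitin (−0.16), and 0 passed at low α-amanitin (−0.12). HIPK2, a kinase that phosphorylates p53, was at 92.5 and 111 CPM at high DRB, 7.09 and 6.96 CPM at low DRB and 0 in both DMSO libraries. COP1, a ubiquitin ligase for p53, was at 0 at high DRB, against 79.4 and 69.5 CPM in DMSO. CREBBP, an acetyltransferase and coactivator of p53, was at 37.1 and 43.5 CPM at low DRB against 0 and 2.44 CPM in DMSO and at 0 in both libraries at high DRB. Bounds from unlisted introns are given here only for the p53 target genes. In both lists a value of 0 thus means below the listing minimum, and the size of a change from or to 0 is not established. With high α-amanitin the kinase HIPK1 rose to 41.4 and 34.2 CPM against 9.16 and 7.94 CPM in DMSO (2.14 ± 0.36 SE, adjusted p = 0.0279), and the acetyltransferase KAT5 fell to 5.16 and 18.8 CPM against 76 and 73.7 CPM (−2.83 ± 0.48 SE, adjusted p = 0.0291).

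Of the DREAM genes, 1 rose and 20 fell at high DRB (median log2 fold change −3.51), 0 rose and 3 fell at low DRB (−0.40), 0 rose and 7 fell at high α-amanitin (−0.47), and 0 passed at low α-amanitin (−0.17). TOP2A, the topoisomerase of dividing cells, was at 78.8 and 159.9 CPM at high DRB, 605 and 662 CPM at low DRB and 514 and 658 CPM at high α-amanitin, against 1296 and 1467 CPM in DMSO. Its log2 fold change was −1.12 ± 0.18 (SE, adjusted p = 0.0164) at low DRB and −1.24 ± 0.15 (SE, adjusted p = 0.0164) at high α-amanitin. CCNB2, cyclin B2, was at 0 in both libraries at high DRB and at 109.6 and 105 CPM at low DRB, against 201 and 231 CPM in DMSO (−1.01 ± 0.13 SE, adjusted p = 0.0116 at low DRB). AURKA, a mitotic kinase, was also at 0 at high DRB and at 43.6 and 68.5 CPM at high α-amanitin, against 116 and 139 CPM in DMSO (−1.20 ± 0.21 SE, adjusted p = 0.0322). At high DRB, where 41.1% of all genes fell, 35.7% had a log2 fold change above 0, and the falls in both lists stand beside that. On introns listed in all 10 libraries 31.4% of 4688 genes fell there and 48.7% were above 0.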

How the data were processed

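RNA-seq of A549 cells was mapped by the authors to GRCh37 with STAR (2.7.3a in the submitters' processing notes) and run through the IPSA pipeline. The deposited files list introns and exons per library, with counts of split, inclusion, skipping and unspliced reads in a text field, and a rescaled inclusion score in the score column, which was not used here. Split-read counts were summed per gene over introns assigned to 1 gene by GENCODE release 44 splice sites and tested with limma 3.58.1 voom in R 4.3.3 on TMM factors, for genes with at least 10 split reads in 2 libraries and 15 over the fit. Each drug was fitted with its 4 libraries and DMSO, and comparisons between drugs with all 10 libraries. P-values were adjusted by Benjamini-Hochberg over all genes, with a threshold of 0.05. Exon inclusion and unspliced shares were tested by a quasi-binomial F test moderated by limma. Exons needed a denominator of at least 10 in every library, and 10 inclusion and 10 skipping reads over the fit. Unspliced shares needed 10 unspliced and 10 split reads over the fit, with no minimum per library. Same-numbered libraries deviated together in the α-amanitin fit, with correlations of 0.41 between its doses and of 0.23 and 0.20 between 2 and 1 μg/mL and DMSO. Replicate numbers were therefore taken as possibly pairing them, although no label says so, and not in the DRB fit (0.12, 0.022 and 0.014). The main fits of both drugs held no replicate block, so that their p-values leave any pairing out. Low DRB, which is in the other fit, gave 0.24 and 0.22 with 2 and 1 μg/mL α-amanitin. Replicate 2 held more split reads than replicate 1 in every condition, and the part of depth in these correlations was not tested. Libraries of a condition differed by more than sampling noise. Alternatives were total split reads as scaling, stricter and narrower intron sets, limma-trend, the replicate block and leaving out each library. Scripts were tested on simulated data. Named were all members, from each other list the 2 genes with the largest change among those called in a comparison, and the 3 exons with the largest change or, with none called, the lowest p. The members and lists were chosen with earlier results of these data known. Figures were drawn with matplotlib 3.10.9 in Python 3.11.15.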

Additional observations from a re-analysis of the deposited data

Results flagged for a closer look

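PLK2 moved in opposite directions with the 2 drugs, each call against DMSO passing, and the difference between the drugs itself passed in limma voom. Its log2 difference from high α-amanitin was 1.93 at low DRB and 3.96 at high DRB. POLH was called down at high DRB and up at high α-amanitin against DMSO, and the log2 difference between them was −8.81, a fitted value that depends on the offset voom adds, since POLH was at 0 in both libraries at high DRB, where its unlisted introns allow up to 2.13 times the DMSO level. These comparisons share the DMSO libraries.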

How the results depend on the processing

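Of 1536 values for single p53 target genes under other settings against DMSO, 1337 kept their side of the threshold, 41 of these being values not called that changed sign, 79 newly passed, 118 no longer passed and 2 reversed. Both reversals were XPC at high DRB, at −1.15 on introns listed in all 10 libraries and −1.16 on those listed in every library of the fit, a set chosen after seeing the data, against 0.48, where far fewer introns were summed. At high α-amanitin 7 genes were called, against 17 with the replicate block, 13 on introns listed in every library of the fit, 14 with a mean of at least 50 split reads, 15 with limma-trend, 13 with all 10 libraries fitted, 0 with only the 2 groups compared and 0 to 6 with a library left out. Over all genes 606 of 9674 were called at high α-amanitin. They were 2124 of 9674 with the block, 1261 of 7462 on introns listed in every library of the fit and 893 of 7268 with the stricter mean. With limma-trend they were 907 of 9674, with all 10 libraries 809 of 10093 and with only the 2 groups 0 of 9322. Between the doses of α-amanitin 1 p53 target gene, FDXR, was called on introns listed in all 10 libraries, against 0, where 12 of 4690 genes were called. At low DRB the 10 calls became 0 with any library left out. At high DRB the 20 calls became 12 on either narrower intron set and 9 to 16 with a library left out. Between the doses of DRB the 20 calls became 13 on introns listed in all 10 libraries and 11 to 17 with a library left out. Against high α-amanitin the 11 calls at low DRB became 4 to 9 with a library left out, and the 21 at high DRB became 13 to 18, or 13 on introns listed in all 10 libraries. The 21 exon calls and the 3 calls of unspliced share at high DRB became 0 with the replicate block and 0 with any library left out. In the DRB fit, whose numbers were not taken as pairing the libraries, the block left 9 calls at low DRB and 18 at high DRB. Of all 9515 genes it called 1062 and 5280, against 1412 and 5822 without it. On introns listed in all 10 libraries 2916 of 4688 genes were called at high DRB and 3048 of 4688 between the doses of DRB, against 5822 and 6005 of 9515. At high DRB against high α-amanitin 2822 of 4690 were called, against 6051 of 10093. In each comparison with calls, fewer of all genes were called with any library left out. With a library left out, the lone library of its group is assumed to vary like the others. The causes of these changes were not tested. Introns below the listing minimum limit what can be said of genes at 0.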
